A study of Homo sapiens with 2 samples.

Results

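The genes described here make, desaturate, elongate, activate, store and oxidise fatty acids. They were chosen by symbol from a written list of 44 genes, all of which were found among the 26506 genes of the deposited tables. The series measured poly(A) RNA in an established human corneal epithelial cell line (ATCC CRL-11515), grown for 72 hours in 1 of 2 media. One group was kept in keratinocyte serum-free medium (KSFM). The other was kept in what the labels call a defined special medium, a DMEM/F12 base to which 10% fetal bovine serum, 1 mM calcium chloride, 10 ng/mL EGF and an antibiotic and antimycotic mix were added. Both groups are the same line with no genetic change named in the labels. RNA from 3 cultures was pooled before sequencing, so each medium has 1 library, the spread between cultures was not measured, and no p-value can be given.

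Cells make saturated fatty acid from acetyl-CoA through acetyl-CoA carboxylase and fatty acid synthase, then lengthen it with elongases and introduce double bonds with desaturases. Once activated to acyl-CoA, a fatty acid can be joined to glycerol and packed into lipid droplets, or carried into mitochondria by the carnitine shuttle and burned by beta-oxidation. In surface epithelia these lipids feed membranes and barrier lipids, and SREBP-1, the product of SREBF1, is a main transcriptional driver of the synthetic genes.

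The KSFM library held 21604652 counts and the special medium library 16900472. The 15 listed markers of corneal and surface epithelium summed to 2495 TPM in KSFM and 5842 TPM in the special medium, with KRT18 the most abundant at 1128 and 2503 TPM. Of the 10 that reached 1 CPM, 4 were higher by the 2-fold rule given below (KRT8, KRT19, KRT15 and TKT) and 0 lower, while KRT5 and CDH1 had ratios of 0.66 and 0.80. The other 5 were nearly absent, with KRT12 at 0 counts in both, KRT3 at 0 and 1, KRT14 at 4 and 10, TP63 at 5 and 13 and ALDH3A1 at 5 and 14. Of 11 listed hepatocyte transcripts 8 reached 1 CPM, of which 7 were higher in the special medium and 0 lower. Among all genes at 1 CPM or more, 9.86% were higher and 6.77% lower. The 7 higher transcripts reached 1 CPM in the special medium only, so the filter left little room for a lower call. The summed level of the 11 was 17.6 TPM in KSFM and 125 TPM in the special medium. SERPINA1, which was not called, gave 16.6 and 21.4 TPM of these sums, with a ratio of 1.15. ALB rested on 18 and 222 counts and APOA1 on 0 and 110. The summed level of 12 adipocyte markers was 126 and 155 TPM, most of it ADIPOR2 at 79.65 and 81.45 TPM. ADIPOQ, LEP, CIDEA and FABP4 were at 0 counts in both libraries. The 10 sebocyte and meibocyte markers summed to 1703 and 1439 TPM, nearly all of it KRT7, and AWAT1, AWAT2 and MC5R were at 0 in both. One of them, FAR2, was higher, on 74 and 160 counts. The 10 endothelial markers summed to 1.28 and 10.5 TPM, with TEK and EMCN at 0 in both. The 2 of them that reached 1 CPM were both higher, CDH5 on 3 and 236 counts and ROBO4 on 43 and 79. The 10 macrophage markers summed to 65.7 and 84.3 TPM, most of it CD68 at 59.5 and 70.9 TPM, with a ratio of 1.05. CD163 was at 0 in both, PTPRC at 1 and 0 counts and MRC1 at 2 and 1. Among the 5 that reached 1 CPM, CD14 (2 and 62 counts) and MARCO (28 and 81) were higher and LYZ (48 and 11) lower. The 10 fibroblast markers summed to 5.81 and 15.9 TPM, with LUM, KERA and THY1 at 0 in both, and FAP, on 100 and 278 counts, was higher. The part of such transcripts in the results below was not tested. In bulk RNA, fewer cells of a type and less RNA per cell cannot be told apart.

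Of the 44 genes, 39 reached 1 CPM (counts scaled to library size) in either library. A gene was called higher or lower in the special medium when its ratio was at least 2-fold and the exact 95% interval of that ratio, which covers counting error only, excluded equality. By this rule 5 of the 39 were higher (ACSL5, DGAT2, ELOVL6, ACSS2 and PLIN3), 1 was lower (GPAM) and 33 were neither. Among all 13632 genes at 1 CPM or more, 9.86% were called higher and 6.77% lower, so the members' shares of 12.8% and 2.56%, from 5 genes and 1 gene, do not set the list apart. The median log2 ratio of the 39 genes, special medium over KSFM, was 0.19, against −0.00042 for all genes. Without the fold limit, 24 of the 39 had an interval wholly above equality and 11 wholly below, or 61.5% and 28.2%, against 37.2% and 36.7% of all genes. Intervals that included equality made up 10.3% of the members and 26.0% of all genes. Higher counts give narrower intervals, and the genes behind these shares were not matched for counts. On the deposited TPM values (which adjust for transcript length) with a pseudocount of 1, the median log2 ratio of all genes shifted to 0.15, and the split of all genes past 2-fold moved from 1344 higher and 923 lower to 1266 higher and 349 lower. Member ratios on TPM are therefore to be read against that shift, and ratios below are those of scaled counts unless TPM is named.

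**Figure D1:**
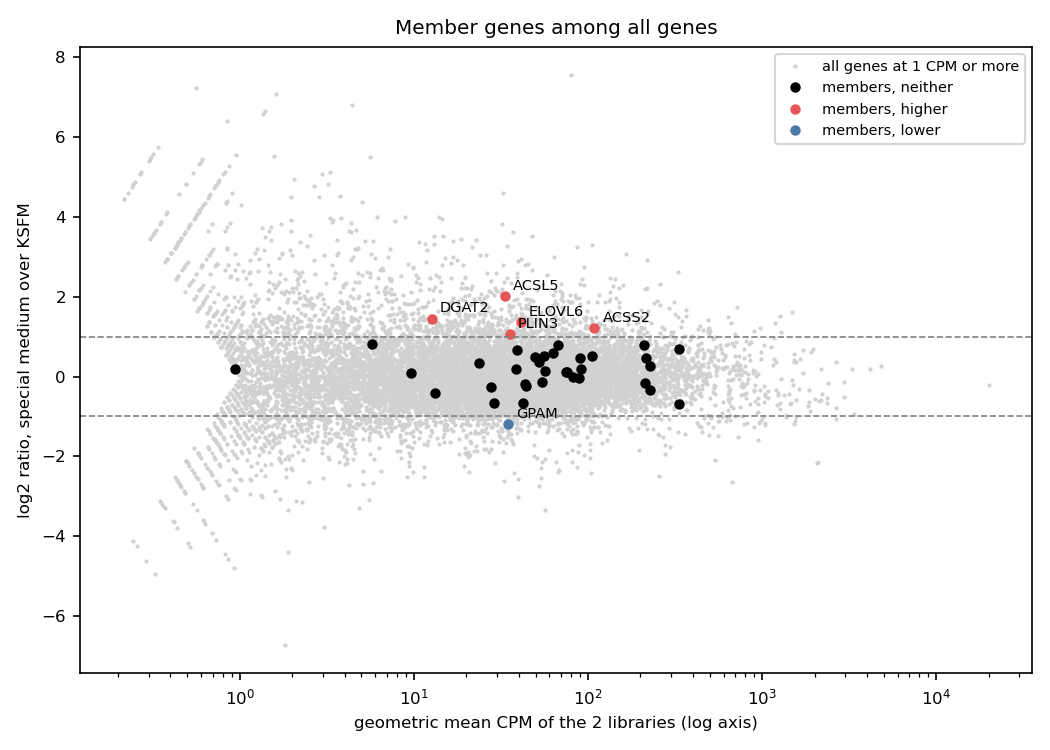
Log2 ratio of special medium over KSFM (y axis) against the geometric mean CPM of both libraries (log x axis), for all 13632 genes at 1 CPM or more (grey, a count of 0 set to 3 counts) and the 39 member genes among them. Dashed lines mark a 2-fold ratio. The 6 labelled genes lie beyond it, and the other 33 members sit inside the main cloud.

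The enzymes that supply acetyl-CoA and build palmitate were led by ACSS2, the cytosolic acetyl-CoA synthetase that turns acetate into acetyl-CoA. ACSS2 stood at 45.9 TPM in KSFM and 121 TPM in the special medium, on 1534 and 2795 counts. It was 2.32-fold higher (2.18 to 2.47). ACLY, which cleaves citrate to give the same product, was at 89.2 and 119 TPM and its ratio was 1.19 (1.14 to 1.25). In KSFM, ACLY made up 65.9% of the summed TPM of ACLY, ACSS1 and ACSS2, and in the special medium ACSS2 and ACLY were almost level at 50.3% and 49.6%. ACSS1, the mitochondrial acetyl-CoA synthetase, was below the filter on 11 and 7 counts.

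Downstream of acetyl-CoA the ratios were small. ACACA, the cytosolic carboxylase that commits carbon to synthesis, had 16.4 and 20.9 TPM and a ratio of 1.14 (1.06 to 1.22). ACACB, the form at the outer mitochondrial membrane whose product restrains fatty acid import, had 3.07 and 2.56 TPM and a ratio of 0.75 (0.62 to 0.90). FASN, the synthase itself, had 40.3 and 61.8 TPM and a ratio of 1.38 (1.32 to 1.44). SREBF1 had 29.2 and 44.4 TPM and a ratio of 1.37 (1.28 to 1.46), close to that of FASN. All 4 of these genes missed the 2-fold rule, although each interval excluded equality, with ACACB on the lower side.

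The promoters of 4 of the 6 genes past the 2-fold rule are shown, since the results turn on these genes: ACSL5, ELOVL6 and ACSS2 were higher in the special medium and GPAM lower. Each is the 250 bases before the 5′-most start listed for the gene in RefSeq (GRCh38.p14), 5′ to 3′ on the gene's strand. Capitals mark CCAAT, or AGGTCA, the core site of nuclear receptors, on either strand.
ACSL5 (chr10:112375018-112375267, plus strand): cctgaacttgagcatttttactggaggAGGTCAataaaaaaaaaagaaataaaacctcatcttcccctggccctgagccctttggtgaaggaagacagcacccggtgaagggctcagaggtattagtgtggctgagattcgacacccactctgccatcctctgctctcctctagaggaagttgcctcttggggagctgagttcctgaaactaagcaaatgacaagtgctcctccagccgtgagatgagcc
ELOVL6 (chr4:110198616-110198865, minus strand): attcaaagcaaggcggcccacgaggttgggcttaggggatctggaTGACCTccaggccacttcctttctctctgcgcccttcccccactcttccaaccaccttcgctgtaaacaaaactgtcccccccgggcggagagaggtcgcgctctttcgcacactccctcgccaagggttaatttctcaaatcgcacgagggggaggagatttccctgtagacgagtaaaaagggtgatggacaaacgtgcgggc
ACSS2 (chr20:34874739-34874988, plus strand): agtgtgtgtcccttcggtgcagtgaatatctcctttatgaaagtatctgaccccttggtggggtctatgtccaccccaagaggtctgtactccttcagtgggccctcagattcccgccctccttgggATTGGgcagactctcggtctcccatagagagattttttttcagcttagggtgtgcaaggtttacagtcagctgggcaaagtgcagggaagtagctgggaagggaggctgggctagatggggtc
GPAM (chr10:112183766-112184015, minus strand): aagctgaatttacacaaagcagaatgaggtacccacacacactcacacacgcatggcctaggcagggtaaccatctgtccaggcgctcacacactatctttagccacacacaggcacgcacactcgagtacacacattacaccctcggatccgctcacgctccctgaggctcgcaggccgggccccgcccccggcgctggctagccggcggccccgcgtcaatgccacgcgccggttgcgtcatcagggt

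ACSL5 and ELOVL6 each held 1 AGGTCA, beginning 223 and 205 bases before the start, ACSS2 held 1 CCAAT 123 bases before it, and GPAM held none of the motifs searched. PLIN3 held 1 CCAAT, 77 bases before its start. A later start is also listed for ACSL5 and for ACSS2, and its window held none of the motifs searched. Over the 59 windows of the 37 members in the table, CCAAT stood in 32.2%, against 32.0% of all 35116 windows, and AGGTCA in 6.78% against 12.1%. The E-box CACGTG stood in 6.78% of member windows and 6.34% of all. The sterol element TCACNCCAC stood in 2 member windows, those of ACSL1 and PNPLA2, and in 0.883% of all windows. Direct repeats of AGGTCA with a spacer of 1 base (AGGTCANAGGTCA) or 4 bases (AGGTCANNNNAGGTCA), each of which also holds AGGTCA, were in no member window and in 0.0171% and 0.0142% of all. A match is a description of letters, not a shown binding site.

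**Figure D2:**
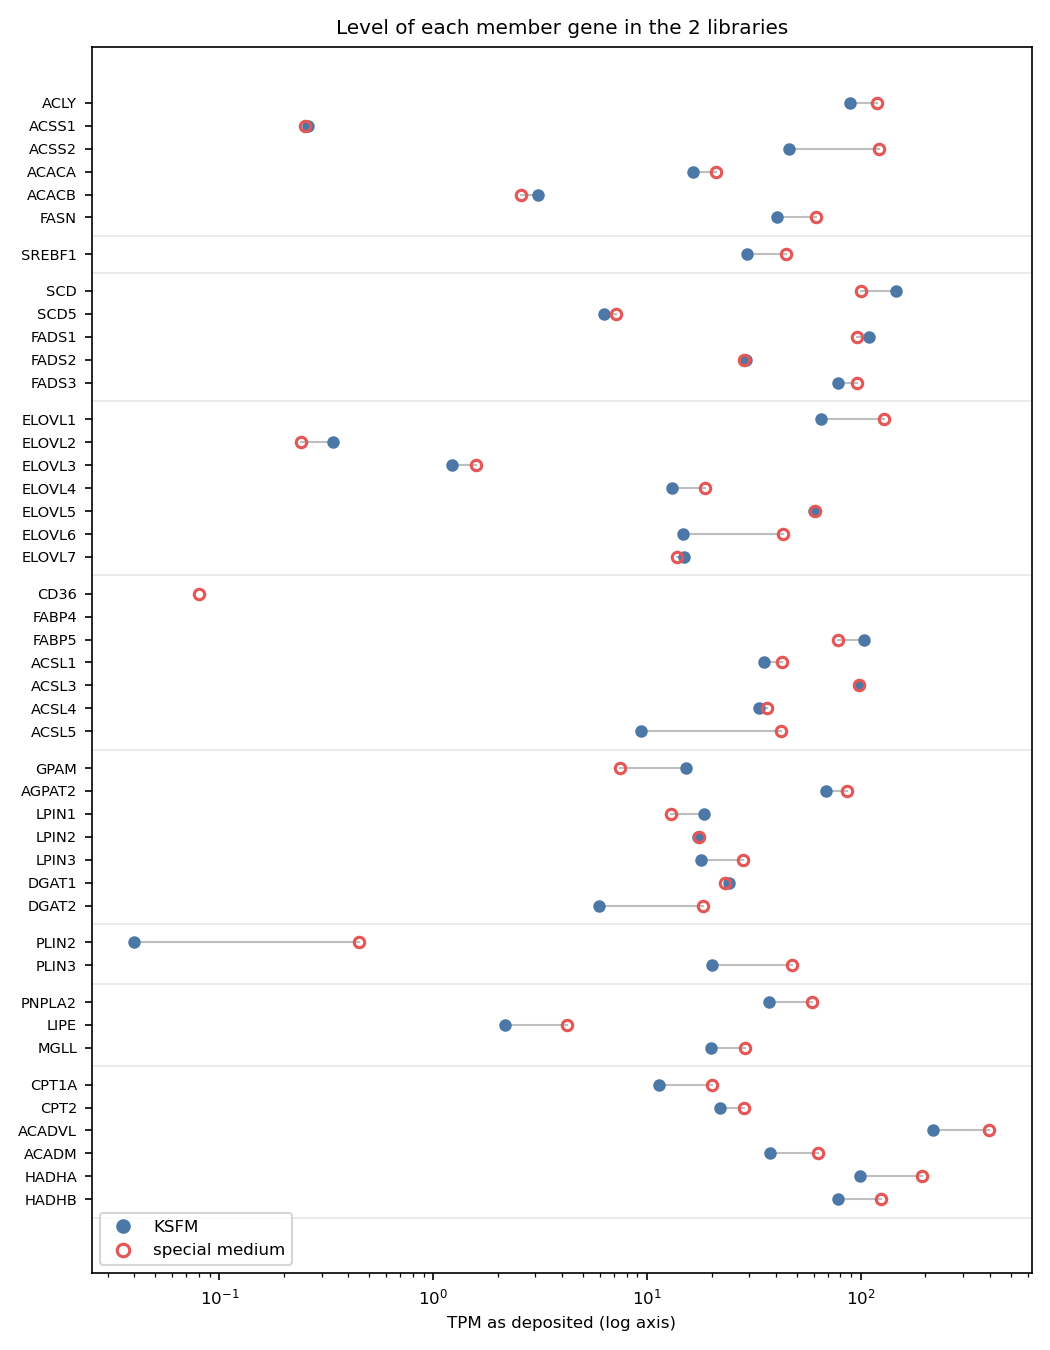
TPM as deposited (log x axis) of each member gene in the KSFM library (filled) and the special medium library (open), 1 library per medium, grouped by role from synthesis at the top to beta-oxidation at the bottom. FABP4 and the KSFM value of CD36 are 0 and are not drawn. ACADVL is the most abundant member in both media, at 218 and 397 TPM.

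The desaturases held 0 genes past the rule in either direction. SCD, the stearoyl-CoA desaturase that makes oleate and palmitoleate, was the most abundant synthetic member in KSFM at 146 TPM, and stood at 100.1 TPM in the special medium, on 9170 and 4433 counts. Its ratio was 0.617 (0.595 to 0.639), short of 2-fold but well clear of equality. SCD5, the other human stearoyl-CoA desaturase, was far scarcer at 6.26 and 7.18 TPM, with an interval that included equality (ratio 1.06, 0.858 to 1.31). SCD thus made up 95.9% of the pair's TPM in KSFM and 93.3% in the special medium.

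The FADS genes, which desaturate polyunsaturated fatty acids, lie together on chromosome 11 (GRCh38, GENCODE release 29 gene bounds). FADS1 spans 61799625 to 61829318 on the minus strand and overlaps FADS2, which spans 61792980 to 61867354 on the plus strand. No source used here gives the strand setting of the counting, so reads from the overlap may not be told apart. FADS1 had 109 and 96.1 TPM and a ratio of 0.790 (0.756 to 0.824). FADS2 had 28.8 and 28.3 TPM and a ratio of 0.879 (0.797 to 0.970). FADS3, whose product acts on sphingoid bases, had 78.2 and 96.1 TPM and a ratio of 1.08 (1.01 to 1.17). The median log2 ratio of the 5 desaturases was −0.19.

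Among the elongases, ELOVL6, which lengthens palmitate toward stearate, was the gene past the rule. It stood at 14.7 TPM in KSFM and 42.9 TPM in the special medium, on 550 and 1113 counts, and was 2.58-fold higher (2.33 to 2.86). ELOVL1, which makes very long saturated chains for sphingolipids, was the most abundant elongase at 65.3 and 128 TPM, with a count ratio of 1.73 (1.60 to 1.87). ELOVL5, which acts on polyunsaturated chains, was at 60.0 and 60.9 TPM, and its ratio of 0.985 (0.918 to 1.06) was within counting error of equality.

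In order of TPM the KSFM library ran ELOVL1, ELOVL5, ELOVL7, ELOVL6, ELOVL4, ELOVL3, ELOVL2, with ELOVL7 and ELOVL6 almost level at 14.8 and 14.7 TPM. In the special medium library ELOVL6 stood next after ELOVL1 and ELOVL5, above ELOVL4 at 18.6 and ELOVL7 at 13.7 TPM. ELOVL6 was 8.70% of the summed elongase TPM in KSFM and 16.1% in the special medium. ELOVL1 was 38.5% and 48.2%, while ELOVL5 was 35.4% and 22.8%. ELOVL4, the elongase of ultra-long chains, had a ratio of 1.27 (1.11 to 1.45), and ELOVL7 0.827 (0.730 to 0.936). ELOVL3 was at the filter on 19 and 17 counts and ELOVL2 below it on 16 and 8, too few counts to show a difference.

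**Figure D3:**
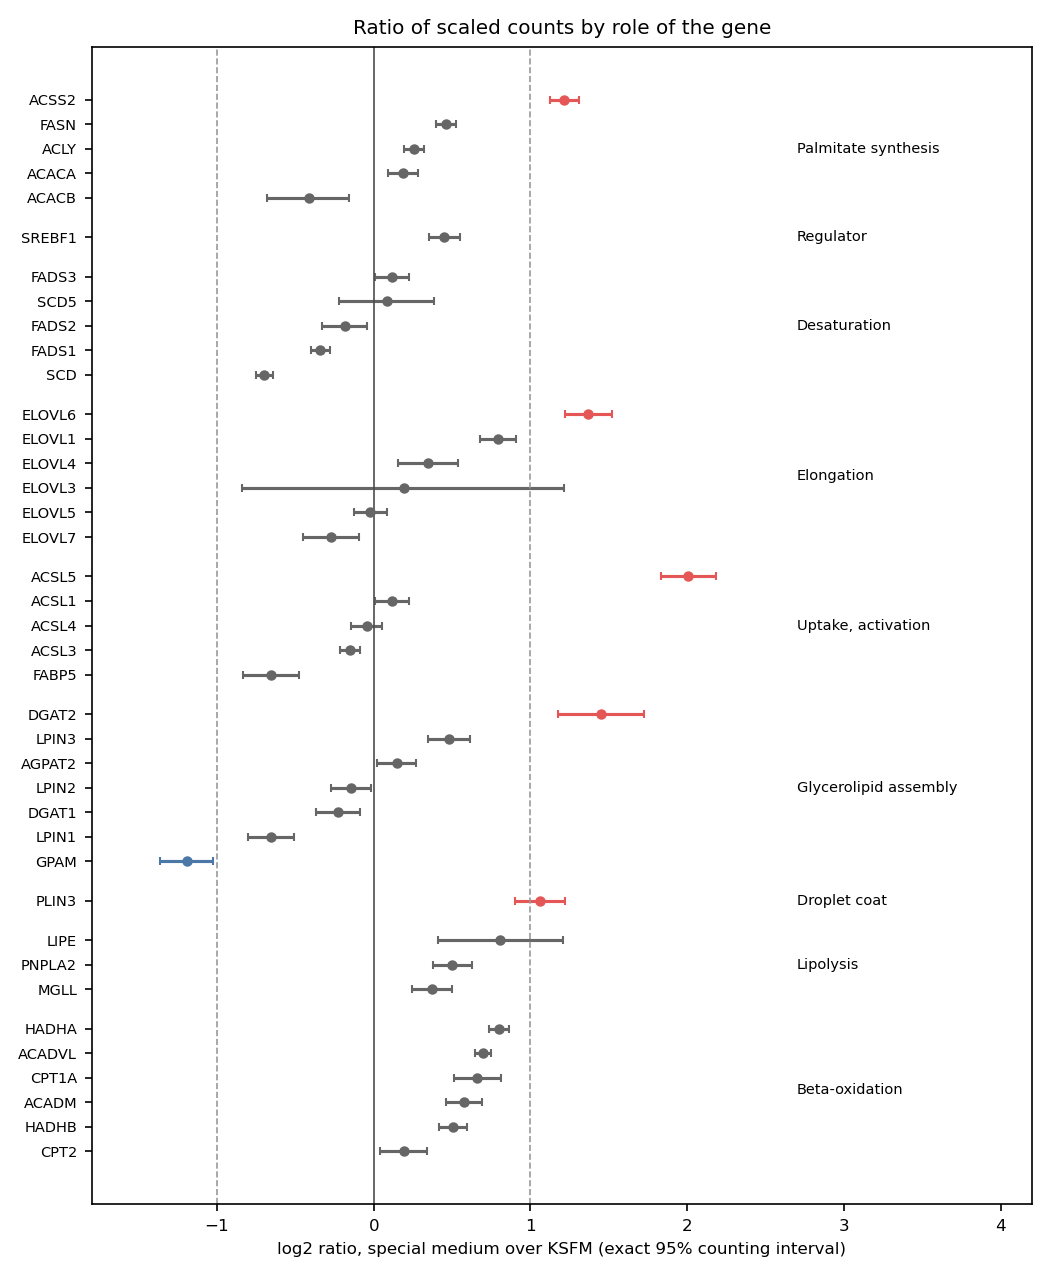
Log2 ratio of special medium over KSFM (x axis) for the 39 member genes at 1 CPM or more, grouped by role, with exact 95% intervals that cover counting error only. Red marks genes called higher, blue the gene called lower and grey neither, and dashed lines mark 2-fold. All 6 beta-oxidation genes and all 3 lipolysis genes lie above 0 without reaching the 2-fold line in their ratio. Of all 13632 genes at 1 CPM or more, 6811 had a ratio above equality.

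Fatty acids are activated to acyl-CoA by the long-chain acyl-CoA synthetases, and ACSL5 had the highest ratio of the 39 genes. ACSL5, found at mitochondria and endoplasmic reticulum, stood at 9.35 TPM in KSFM and 42.2 TPM in the special medium, on 358 and 1128 counts, and was 4.02-fold higher (3.56 to 4.54). The gene (ENSG00000197142) spans chromosome 10 from 112374018 to 112428380 on GRCh38. The other 3 measured synthetases differed little. ACSL1 had a ratio of 1.08 (1.01 to 1.17), ACSL3, an enzyme of nascent lipid droplets, 0.899 (0.860 to 0.939), and ACSL4, which prefers arachidonate, 0.969 (0.905 to 1.04). ACSL5 was the least abundant of the 4 in KSFM, at 5.33% of their summed TPM. In the special medium it reached 19.3%, level with ACSL1 at 19.6%, while ACSL3 was the most abundant in both libraries at 97.4 and 97.7 TPM.

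Among the members for fatty acid uptake and binding, only FABP5, the epidermal fatty acid-binding protein, reached 1 CPM. FABP5 had 104 and 77.9 TPM, on 776 and 387 counts, with a ratio of 0.636 (0.562 to 0.719). Its log2 ratio was −0.65 on counts, and −0.32 once a trend of the ratios on effective transcript length was removed. Processed copies of FABP5 exist in the genome, so how its reads were assigned is uncertain. The tables list 1 such copy, FABP5P3, with 0 counts in both libraries. FABP4, the adipocyte and macrophage form, had 0 counts in both libraries, so that at 3 counts its level could be up to 0.139 CPM (KSFM) and 0.177 CPM (special medium). CD36, a fatty acid translocase, had 0 and 2 counts, too few to compare.

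**Figure D4:**
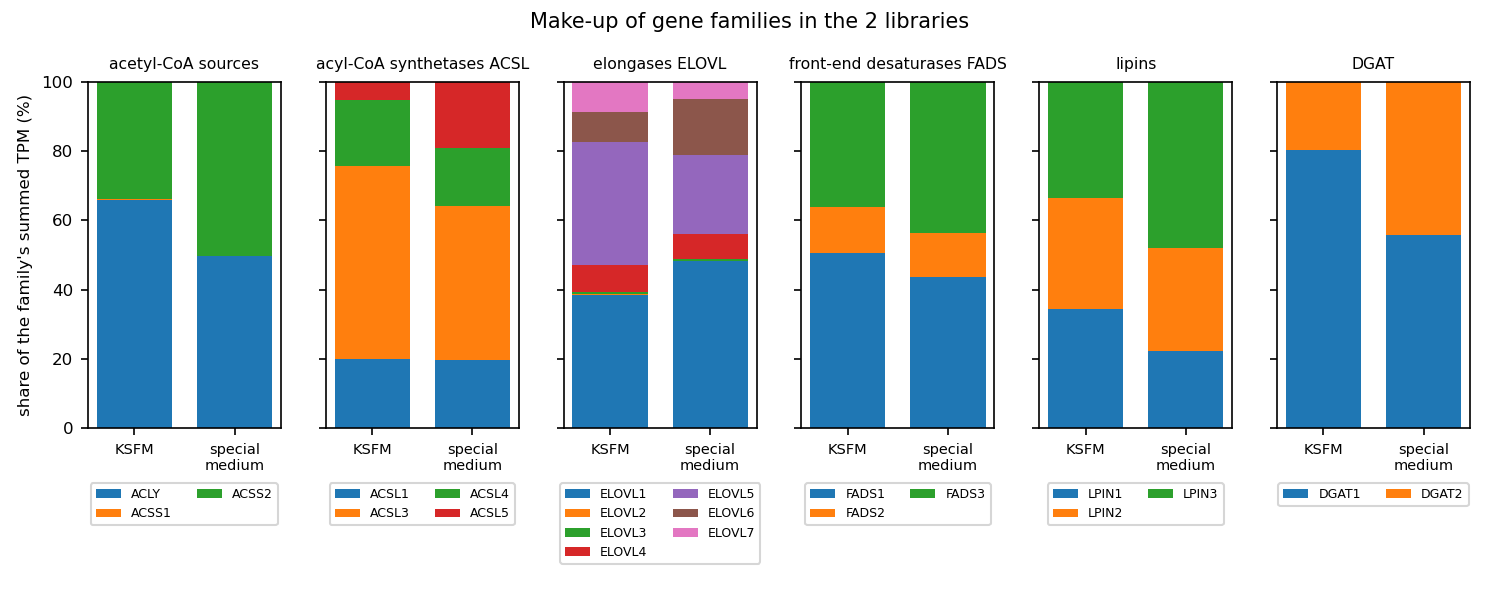
Share of each family's summed TPM (y axis, percent) taken by each gene in the KSFM and special medium libraries, 1 bar per library. ACSS2, ACSL5, ELOVL1, ELOVL6, FADS3, LPIN3 and DGAT2 take larger shares in the special medium, as for DGAT2 at 19.7% and 44.1%.

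Glycerolipid assembly held the gene called lower and, at its last step, a gene called higher. GPAM, the mitochondrial acyltransferase that adds the first fatty acid to glycerol phosphate, stood at 15.3 TPM in KSFM and 7.44 TPM in the special medium, on 1126 and 386 counts. It was 2.29-fold lower (2.04 to 2.57), and on TPM with a pseudocount of 1 its log2 ratio of −0.95 was short of 2-fold, against −1.10 after centring on all genes. AGPAT2, which adds the second fatty acid, had 68.3 and 85.8 TPM and a ratio of 1.11 (1.02 to 1.20).

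The lipins remove phosphate to give diacylglycerol, and LPIN1 also acts in the nucleus as a coregulator. LPIN1, LPIN2 and LPIN3 were almost level in KSFM, at 18.4, 17.2 and 17.9 TPM. In the special medium they stood at 12.9, 17.4 and 27.9 TPM, so that LPIN3 took 48.0% of the summed lipin TPM against 33.5% in KSFM. The ratio was 0.635 (0.574 to 0.703) for LPIN1 and 1.39 (1.27 to 1.53) for LPIN3, on opposite sides of equality and both short of 2-fold.

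The diacylglycerol acyltransferases complete triglyceride. DGAT2, the enzyme tied to newly made fatty acid, stood at 5.96 TPM in KSFM and 18.3 TPM in the special medium, on 165 and 353 counts, and was 2.73-fold higher (2.26 to 3.30). It (ENSG00000062282) spans chromosome 11 from 75759512 to 75801535. DGAT1, unrelated to it in sequence, had 24.2 and 23.2 TPM and a ratio of 0.855 (0.775 to 0.942). DGAT1 was 80.3% of the pair's TPM in KSFM and 55.9% in the special medium. With members on both sides of equality, the median log2 ratio of the 7 assembly genes was −0.14, and it was 0.01 on TPM with a pseudocount of 1, where the median of all genes was 0.15.

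On the droplet surface, PLIN3, a perilipin that moves from cytosol to new droplets, was past the rule. It stood at 20.1 and 47.3 TPM, on 529 and 866 counts, and was 2.09-fold higher (1.87 to 2.33), the called gene nearest to the 2-fold limit. With the effective length trend removed its log2 ratio was 0.96, short of the rule. PLIN2, the perilipin usually found on droplets outside fat, was scarcely detected at 0.04 and 0.45 TPM, on 1 and 7 counts. With so few counts its ratio of 8.93 has an interval from 1.15 to 402, and it was below the filter in both libraries. PLIN3 made up 99.8% of the pair's TPM in KSFM and 99.1% in the special medium. Such counts of PLIN2 are unusually low for epithelial cells, and the alignments behind them were not analysed here, so the PLIN3 share is only as sure as the PLIN2 counts.

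The 3 lipolysis enzymes, which release fatty acids from stored glycerides in turn, all had intervals above equality and ratios short of 2-fold. Of all genes, which were not matched for counts, 37.2% had an interval wholly above equality. PNPLA2, the adipose triglyceride lipase, had 37.1 and 59.2 TPM and a ratio of 1.41 (1.30 to 1.54). LIPE, hormone-sensitive lipase, was scarce at 2.16 and 4.22 TPM. Among the uncalled members its ratio of 1.75 (1.33 to 2.31) was nearest to 2-fold on the higher side. MGLL, monoglyceride lipase, had 19.8 and 28.7 TPM and a ratio of 1.29 (1.18 to 1.41).

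The beta-oxidation members stood on 1 side of equality throughout. All 6 had an interval above equality, against 37.2% of all genes, which were not matched for counts, and 0 were past the 2-fold rule. Their median log2 ratio was 0.62, and it was 0.60 on centred TPM and 0.49 with the length trend removed. HADHA, the trifunctional protein subunit with hydratase and dehydrogenase activity, had 99.0 and 193 TPM and the highest ratio, 1.74 (1.66 to 1.82). HADHB, the thiolase subunit of the same complex, had 77.7 and 125 TPM and a ratio of 1.42 (1.33 to 1.51). HADHA and HADHB are divergent neighbours on chromosome 2, and their GENCODE bounds overlap by 26243170 to 26244726, so reads there may not be told apart.

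ACADVL, the very long chain acyl-CoA dehydrogenase, had 218 and 397 TPM, on 5609 and 7123 counts, and a ratio of 1.62 (1.56 to 1.68). ACADM, the medium chain enzyme, had 37.7 and 62.9 TPM and a ratio of 1.49 (1.37 to 1.62). CPT1A, which loads fatty acids onto carnitine and sets the rate of mitochondrial entry, had 11.3 and 20.0 TPM and a ratio of 1.58 (1.43 to 1.75). CPT2, its partner at the inner membrane, had 22.0 and 28.2 TPM and the lowest ratio of the group, 1.14 (1.03 to 1.27). The summed TPM of the 6 genes was 465 in KSFM and 826 in the special medium.

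The other genes of fatty acid metabolism were read from 14 lists holding 194 genes, of which 157 reached 1 CPM. By the 2-fold rule 18 of them were higher and 6 lower, beside the 9.86% and 6.77% of all genes, and their median log2 ratio was 0.14. Among 24 measured regulators, 1 was lower and 1 higher. INSIG1, which holds SREBP precursors in the endoplasmic reticulum, was 2.56-fold lower (2.28 to 2.89), and RXRA, the shared partner of nuclear receptors, was 2.09-fold higher. Of 13 genes that supply acetyl-CoA and NADPH, the reducing agent of synthesis, 2 were higher and 0 lower. Among them was the cytosolic isocitrate dehydrogenase IDH1, at 52.9 and 168 TPM, which was 2.80-fold higher.

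Of 18 measured genes of the carnitine shuttle and mitochondrial beta-oxidation outside the members, 3 were higher and 1 lower. Among all genes 9.86% were higher and 6.77% lower. The median log2 ratio of the 18 was 0.35. Without the fold limit, 10 of the 18 had an interval wholly above equality and 5 wholly below, against 37.2% and 36.7% of all genes. The genes behind these shares were not matched for counts. The genes of this list below equality included ECI1, ACADS and ACADSB, with ratios of 0.75, 0.79 and 0.66. ETFB and ETFDH, which pass electrons from the acyl-CoA dehydrogenases to the respiratory chain, were 2.56-fold and 2.34-fold higher, and the thiolase ACAA2 2.04-fold. ETFA, in the same list, had 171 and 230 TPM with a ratio of 1.18 and was not called. CPT1C, the neuronal form of the carnitine enzyme, was 2.99-fold lower (1.83 to 5.09) on 80 and 21 counts. In the peroxisomal list 1 of 14 was higher and 0 lower, with a median log2 ratio of 0.23.

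Other acyltransferases of glycerolipids had 4 of 14 higher and 0 lower. GPAT3, an endoplasmic reticulum enzyme that catalyses the same reaction as GPAM, stood at 9.95 and 24.9 TPM and was 2.23-fold higher (1.93 to 2.58), opposite to GPAM. GPAT4, in the same list, stood at 21.7 and 24.0 TPM with a ratio of 0.99 and was not called. MBOAT1, LPCAT3 and LPCAT2, which reacylate lysophospholipids, were 2.15-fold, 2.09-fold and 2.02-fold higher. The droplet list had 1 of 10 higher and 2 lower, with a median log2 ratio of −0.35. FITM2, which aids droplet budding, was 2.25-fold lower, HILPDA, an inhibitor of PNPLA2, 2.08-fold lower, and METTL7A, a droplet-associated methyltransferase, 12.5-fold higher on 9 and 88 counts.

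In the list of other synthetases and uptake, 2 of 14 genes were higher and 2 lower. Among the lower ones, ACBD3, a Golgi acyl-CoA-binding protein, was 2.09-fold lower. ACSM3 was 7.01-fold higher on 8 and 44 counts. FABP1, a liver fatty acid-binding protein and one of the hepatocyte markers above, rested on 0 and 28 counts. The exact interval of its ratio puts it at least 9.06-fold higher, and with the KSFM library set to 3 counts the ratio is 11.9. Of 9 measured LXR targets outside the members, 3 were higher (ABCG1, LPCAT3 and APOE, at 2.14-fold, 2.09-fold and 2.09-fold) and 0 lower. The median log2 ratio of the 9 was 0.81. LPCAT3 is counted in 2 lists. In the lipolysis control list 1 of 10 was higher, PNPLA7, on 11 and 24 counts. The elongation partners and desaturation partners held 0 genes past the rule. The elongation partners split evenly, 3 above equality and 3 below, and of the 2 most expressed the enoyl reductase TECR had a ratio of 1.24 (1.16 to 1.33) and the dehydratase HACD3 0.81 (0.77 to 0.85). Among the desaturation partners, the reductase CYB5R3 had a ratio of 1.40 and the electron carrier CYB5A 1.30.

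**Figure D5:**
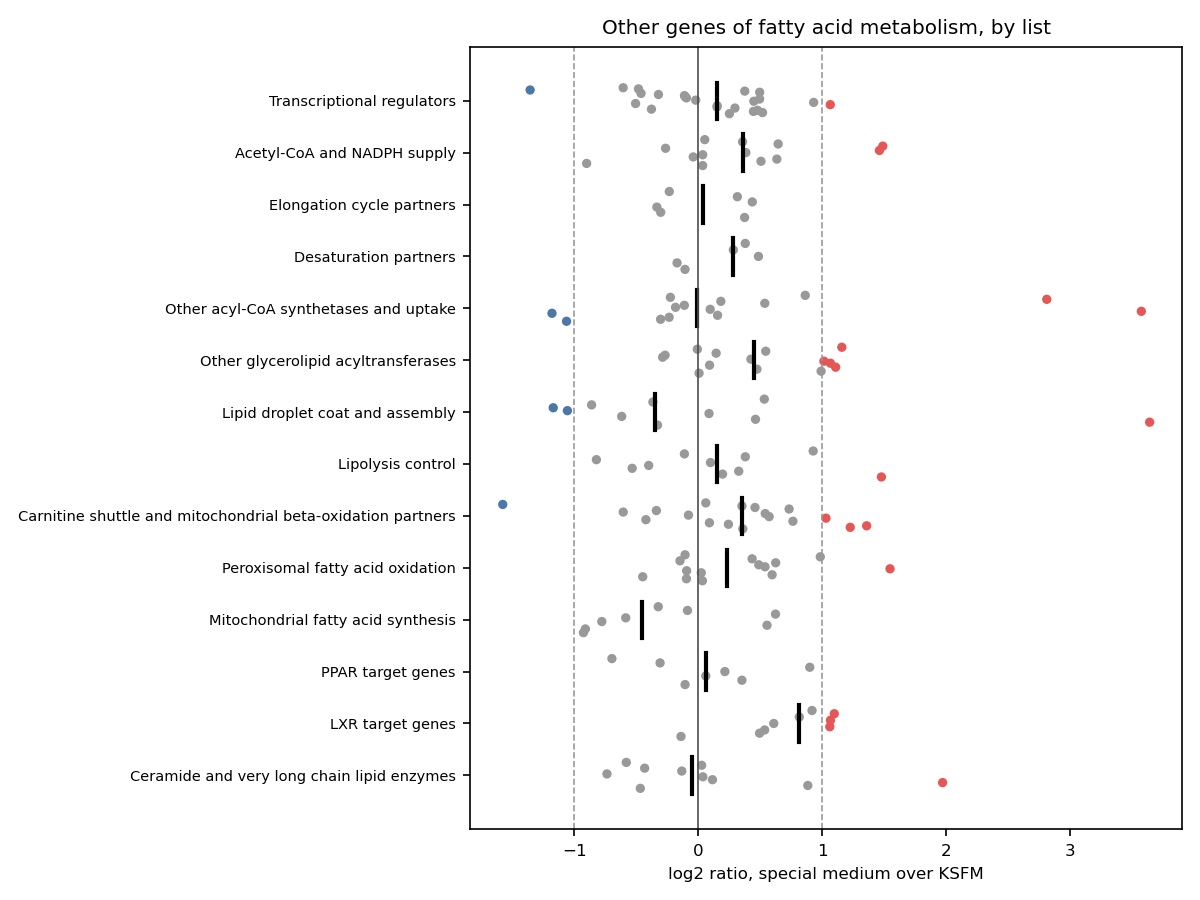
Log2 ratio of special medium over KSFM (x axis) of each measured gene in 14 lists of fatty acid metabolism outside the members, with the list median as a black bar. Red marks genes called higher and blue lower, dashed lines mark 2-fold, and medians run from −0.46 in mitochondrial fatty acid synthesis to 0.81 in the LXR targets.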

How the data were processed

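Per the labels' protocols, poly(A) RNA of the pooled cultures was sequenced with a stranded kit. The submitters' processing notes name HISAT2 2.1.0, RSEM, fastp 0.20.0, FastQC 0.11.9 and GRCh38. Their order, the annotation and the strand setting are unknown (not given in the sources used here). Tables as deposited by the authors hold estimated counts (fractional for 11.3% of KSFM genes and 8.05% of special medium genes) and TPM values. Counts were rounded, and library sizes were scaled with edgeR 4.0.16 (TMM). Each ratio carries an exact 95% interval (Clopper-Pearson, given the total of both counts). Zeros were replaced by 3 counts. Reads are not independent molecules, so intervals and floors show counting error only, 0.41 either way on the log2 scale at 100 counts in each library and 0.13 at 1000.

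The members and lists were chosen with earlier results of these data known. All 44 members are accounted for. From each other list up to 4 genes past the rule with the largest ratios are named, or the 2 most expressed (TPM). Some genes that this rule names are left out, and some genes outside it are named. Scaling alternatives were total counts, upper quartile and DESeq2 1.42.0. The others were TPM (pseudocount 1 or 0.1, and centred), no filter or one of 10 CPM, 4-fold in place of 2-fold, intervals that lie beyond 2-fold entirely, and removal of a cubic trend on effective length (count per TPM). RefSeq promoter windows matched 37 of 44 members. FASN, DGAT1, DGAT2, FABP4, FABP5, LPIN3 and MGLL were not matched. Gene bounds are from GENCODE release 29. Software was Python 3.11.15 with scipy 1.17.1, numpy 2.4.6, matplotlib 3.10.9 and pandas 2.3.3, and R 4.3.3.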

Additional observations from a re-analysis of the deposited data

How the results depend on the processing

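No paired analysis was possible because each medium has 1 library. Under total count, DESeq2 and upper quartile scaling the members stayed at 5 higher and 1 lower. A 4-fold rule left 1 higher and 0 lower among the members, 408 and 162 among all genes, and 3 and 0 in the pathway lists, by its own construction. An interval wholly beyond 2-fold left 4 members higher, without PLIN3, and 837 and 395 of all genes and 8 and 2 of the listed genes. A filter of 10 CPM tests fewer genes and gave 788 and 446 of all genes. On TPM with a pseudocount of 1 no member was lower (0), all genes lower numbered 349 and listed genes lower 1, and the members' median log2 ratio was 0.34. With a pseudocount of 0.1 these were 1 member, 605, 3 and 0.36, and on centred TPM 536 of all genes were lower. The cause of the TPM differences was not tested. ELOVL5, ACSL3, ACSL4 and LPIN2, none of them called, changed sign on uncentred TPM, and SCD5 and ACSL1 with the length trend removed.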

Other observations

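Lipid enzymes outside the pathways above gave mixed values. In the list of ceramide and very long chain lipid enzymes, 1 of 10 measured genes was higher in the special medium and 0 lower, with a median log2 ratio of −0.05. SPTLC3, a subunit of the enzyme that starts sphingolipid synthesis, was 3.92-fold higher on 28 and 86 counts. The mitochondrial fatty acid synthesis list, whose products include the lipoate precursor, held 0 of 8 genes past the rule, but its median log2 ratio of −0.46 was the lowest of the 14 lists. NDUFAB1, its most expressed gene, had 285 and 198 TPM and a log2 ratio of −0.78. LIAS stood next in KSFM, at 48.2 and 30.0 TPM with a log2 ratio of −0.93, and MECR was level with it in the special medium, at 40.3 and 30.3 TPM with a log2 ratio of −0.59.

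The PPAR target list, which like the other lists leaves out the members, held 0 of 7 measured genes past the rule. CPT1B and UCP2, its most expressed genes, had ratios of 1.04 and 0.807. The following genes were picked after their values were seen. ANGPTL4 had 0 and 2 counts and PDK4 had 2 and 5, beside PLIN2 at 1 and 7 counts. PPARG, the receptor gene, stood at 26.2 and 56.0 TPM on 549 and 820 counts. Its ratio of scaled counts was 1.90 (1.71 to 2.13), short of the 2-fold rule. G0S2, an inhibitor of PNPLA2, was far more abundant than any of the 3 lipases, at 497 TPM in KSFM and 533 TPM in the special medium. SREBF2, of the sterol branch of the SREBP system, had a log2 ratio of −0.61, against 0.45 for SREBF1. SCAP, another gene of the SREBP system and not particular to 1 branch, had −0.48.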
